A study of Mus musculus with 2 samples.

Results

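The immune checkpoint and costimulation genes described here are 10 genes, Pdcd1, Ctla4, Lag3, Tigit, Havcr2, Icos, Cd274, Pdcd1lg2, Cd80 and Cd86, taken by symbol from the 32285 genes of each matrix. All 10 had exactly 1 gene entry and at least 1 unique molecular identifier (UMI, a count of 1 captured mRNA molecule) in both libraries. The first 6 encode receptors that are borne mainly by T and natural killer (NK) cells, and the last 4 encode ligands that are borne mainly by myeloid, B, endothelial and tumor cells.

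T cells that have met antigen carry receptors that tune the response. PD-1 (Pdcd1), CTLA-4 (Ctla4), LAG-3 (Lag3), TIGIT (Tigit) and TIM-3 (Havcr2) dampen it, whereas ICOS (Icos) is a costimulatory receptor induced on activation. PD-L1 (Cd274) and PD-L2 (Pdcd1lg2) engage PD-1, and CD80 and CD86 engage both the activating receptor CD28 and its competitor CTLA-4. In tumors and their metastases these genes mark chronically stimulated CD8 T cells, regulatory T cells and the myeloid cells that restrain them, and antibodies against PD-1 block one arm of this system.

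The data were single-cell RNA-seq of leukocytes from female BALB/c mice of 7 to 8 weeks that carried liver metastases of the 4T1 mammary carcinoma line, seeded through the spleen by hemisplenectomy. By hepatic arterial infusion (HAI) the mice received either the vehicle or CBL0137, a curaxin that loosens DNA from histones, at a low or at a high dose, and cells of 2 mice per group were pooled 5 days later. No mouse without a tumor or without an infusion was included, and the size of neither dose is stated by the sources read. The methods name only the vehicle and CBL0137, with no low-dose group. They give hashtags A0301 or A0310 for the staining and list A0305 among the sequences. The low and high doses are thus taken from the labels alone. The 3 groups were stained with hashtag antibodies and run together in a droplet library whose label reads liver (the liver-labelled library) and in another whose label reads spleen (the spleen-labelled library), so each group had 1 pool per library. No difference between groups therefore has a replicate check, no test was made, and every interval below is an exact 95% interval that covers counting error only.

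The hashtag sequences are shown because every comparison between groups rests on them, each with the tag name used by the labels and with no letters marked.
A0301, vehicle: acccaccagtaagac
A0305, low dose: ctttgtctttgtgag
A0310, high dose: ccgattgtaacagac

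The liver-labelled library held 9591 barcodes, of which 3103 carried the vehicle, 3194 the low-dose and 2138 the high-dose hashtag, with 17333148 to 26508853 gene UMIs per group. The spleen-labelled library held 4830 barcodes, of which 822, 1301 and 865 were called, with 7130127 to 10589251 gene UMIs per group, and 1627 of its barcodes had no call. Of these, 1425 held at least 10 UMIs of the high-dose hashtag and at least 3 times as many as of the next, so the loss fell mostly on the high-dose group. Kupffer cell, liver endothelial, hepatocyte and 4T1 transcripts were found in the spleen-labelled library and not as clusters in the liver-labelled library, and the file names of both libraries also give the other tissue. The libraries are therefore called by their labels throughout, and no tissue is assigned. The methods describe a CD11b+ isolation whereas the labels describe leukocytes, and both libraries held T and B cells. The libraries shared 15 barcodes.

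Among the ligands, Cd274 and Pdcd1lg2 are neighbors on mouse chromosome 19 (GRCm38), at 29367455 to 29388095 and 29410919 to 29471161 on the plus strand. The macrophage-like cells of the spleen-labelled library held many UMIs of both, whereas a neutrophil-like cluster with high Cd274 held few of Pdcd1lg2, as given below. The 250 bases before the RefSeq start site of each gene (GRCm38.p6) are shown side by side, with any match to the core of the hypoxia response element, ACGTG or GCGTG on either strand, in capitals. The window of Cd274 held 1 such match, which began 201 bases before the start, and the window of Pdcd1lg2 held none.
Cd274, chr19:29367188-29367437, plus strand: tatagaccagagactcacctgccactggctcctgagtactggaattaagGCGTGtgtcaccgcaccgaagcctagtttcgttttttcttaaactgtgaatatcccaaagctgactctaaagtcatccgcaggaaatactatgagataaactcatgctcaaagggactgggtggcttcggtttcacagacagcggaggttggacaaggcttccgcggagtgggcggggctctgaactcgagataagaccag
Pdcd1lg2, chr19:29410669-29410918, plus strand: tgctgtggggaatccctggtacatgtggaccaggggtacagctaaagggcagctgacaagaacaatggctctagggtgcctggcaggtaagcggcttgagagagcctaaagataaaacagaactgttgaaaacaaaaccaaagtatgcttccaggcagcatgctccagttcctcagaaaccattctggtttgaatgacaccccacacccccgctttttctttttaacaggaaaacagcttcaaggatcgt
Either motif was present in 38.6% of 32851 RefSeq windows of the same length, so a match is common and is no evidence of a site.

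Across cell classes, Pdcd1, Ctla4 and Icos had most of their UMIs in T cell-like cells, with wide differences in level between the libraries. In the liver-labelled library, Havcr2, Lag3 and Tigit stood higher in another class than in T cell-like cells. Ligand levels were high in dendritic cell-like and macrophage-like classes, and Cd274 was also high in a neutrophil-like cluster. Cells were clustered within each library without the 10 genes, and clusters were named from marker lists. Levels are UMIs of a gene per 1000000 gene UMIs summed over the cells of a class (CPM), a scale that is not divided by gene length, so levels are compared between cells and not between genes.

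In the 321 T cell-like cells of the spleen-labelled library, the summed level over all groups was 182 CPM (164 to 201) for Pdcd1, against 8.09 CPM (6.64 to 9.76) in the 2508 T cell-like cells of the liver-labelled library. Lag3 stood at 90.5 CPM in the former and 3.12 CPM in the latter. Havcr2 stood at 48.5 CPM and 0.965 CPM. For all 3 inhibitory receptors the intervals of the libraries did not meet. Icos (117 and 40.2 CPM) and Ctla4 (110.2 and 31.9 CPM) were nearer to each other, again without meeting intervals. The libraries differ in tissue, droplet run and T cell makeup, and these cannot be told apart.

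Tigit was scarce, with 18 UMIs in the liver-labelled library and 14 in the spleen-labelled library, and no ratio is given for it. In the 156 NK cell-like cells of the liver-labelled library it reached 7 UMIs, a level of 9.42 CPM (3.79 to 19.4), against 0.668 CPM in the T cell-like cells there. Lag3 in the NK cell-like cells was 25.6 CPM, and by group it was 34.2 CPM with the vehicle, 7.65 CPM at the low dose and 35.9 CPM at the high dose, from 6, 2 and 11 UMIs. The 10 neutrophil markers summed to 23144, 1626 and 1472 CPM in these groups, and their part in the Lag3 levels was not tested. The low-dose interval of Lag3 reached up to 27.6 CPM and overlapped that of the vehicle, so no difference in Lag3 between groups was detectable at this depth. Of other checkpoint pathway genes in these cells, Cd160, Tnfrsf9 and Tox stood above the vehicle at the high dose, and Cd44 below it. Their log2 ratios were 2.06 (0.91 to 3.44), 3.10 (1.46 to 5.43), 1.89 (0.37 to 3.87) and -1.25 (-2.35 to -0.17). The vehicle held 7, 3, 4 and 19 UMIs of them, and the part of neutrophil RNA was not tested.

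Receptor UMIs also appeared outside T and NK cells. Havcr2 was higher in the conventional dendritic cell-like cells of the liver-labelled library (93.7 CPM over all groups) than in its T cell-like cells, and dendritic cells are known to express this gene. Both Havcr2 and the dendritic cell markers of that cluster were lowest at the high dose, and erythroid markers were high in it, as given below. In the 218 macrophage-like cells of the spleen-labelled library, which were led by Arg1 and Ccl8, Havcr2 stood at 43.7 CPM, Ctla4 at 24.3 CPM and Pdcd1 at 19.4 CPM. In the vehicle, low-dose and high-dose groups, Pdcd1 was seen in 5, 3 and 12 of 50, 86 and 82 of these cells. Ctla4 was seen in 4, 9 and 7 of them and Havcr2 in 16, 32 and 27. The 7 T cell markers summed to 439 CPM there and to 5709 CPM in the T cell-like cells of the same library, with all 7 detected in each group, and the part of T cell RNA in these receptor levels was not tested. In the 83 Kupffer cell-like cells Icos stood at 47.0 CPM, from 3 UMIs with the vehicle, 13 at the low dose and 26 at the high dose, or 58.0, 55.2 and 42.9 CPM. The T cell markers summed to 0, 8.50 and 239 CPM in these groups, with 0, 2 and 7 of the 7 genes detected, and their part in the high-dose level of Icos was not tested. The 25 plasmacytoid dendritic cell-like cells held 20 UMIs of Lag3, a level of 108 CPM (66.0 to 167).

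Of the ligands, Cd274 was highest in the conventional dendritic cell-like (102 CPM) and macrophage-like (98.8 CPM) cells of the spleen-labelled library, followed by its Kupffer cell-like (68.3 CPM) and endothelial cell-like (46.0 CPM) cells. The intervals of the first 2 classes overlapped, as did those of the last 2. The 82 cells of the 4T1-like cluster, led by Wfdc2, Krt8 and Krt18, held 15 UMIs of Cd274 in 2655954 gene UMIs, a level of 5.65 CPM (3.16 to 9.31). Of these UMIs, 14 were from the high-dose group, in 5 of its 49 cells, and 1 cell held 7. Cd86 stood at 93.3 CPM in the macrophage-like cells of the liver-labelled library, which were led by Vcam1 and C1qa, and at 88.5 CPM in the Kupffer cell-like cells. In the macrophage-like cells of the spleen-labelled library Pdcd1lg2 stood at 24.1 CPM and Cd80 at 10.8 CPM, and Pdcd1lg2 reached 13.6 CPM in the B cell-like cells of the liver-labelled library.

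**Figure D1:**
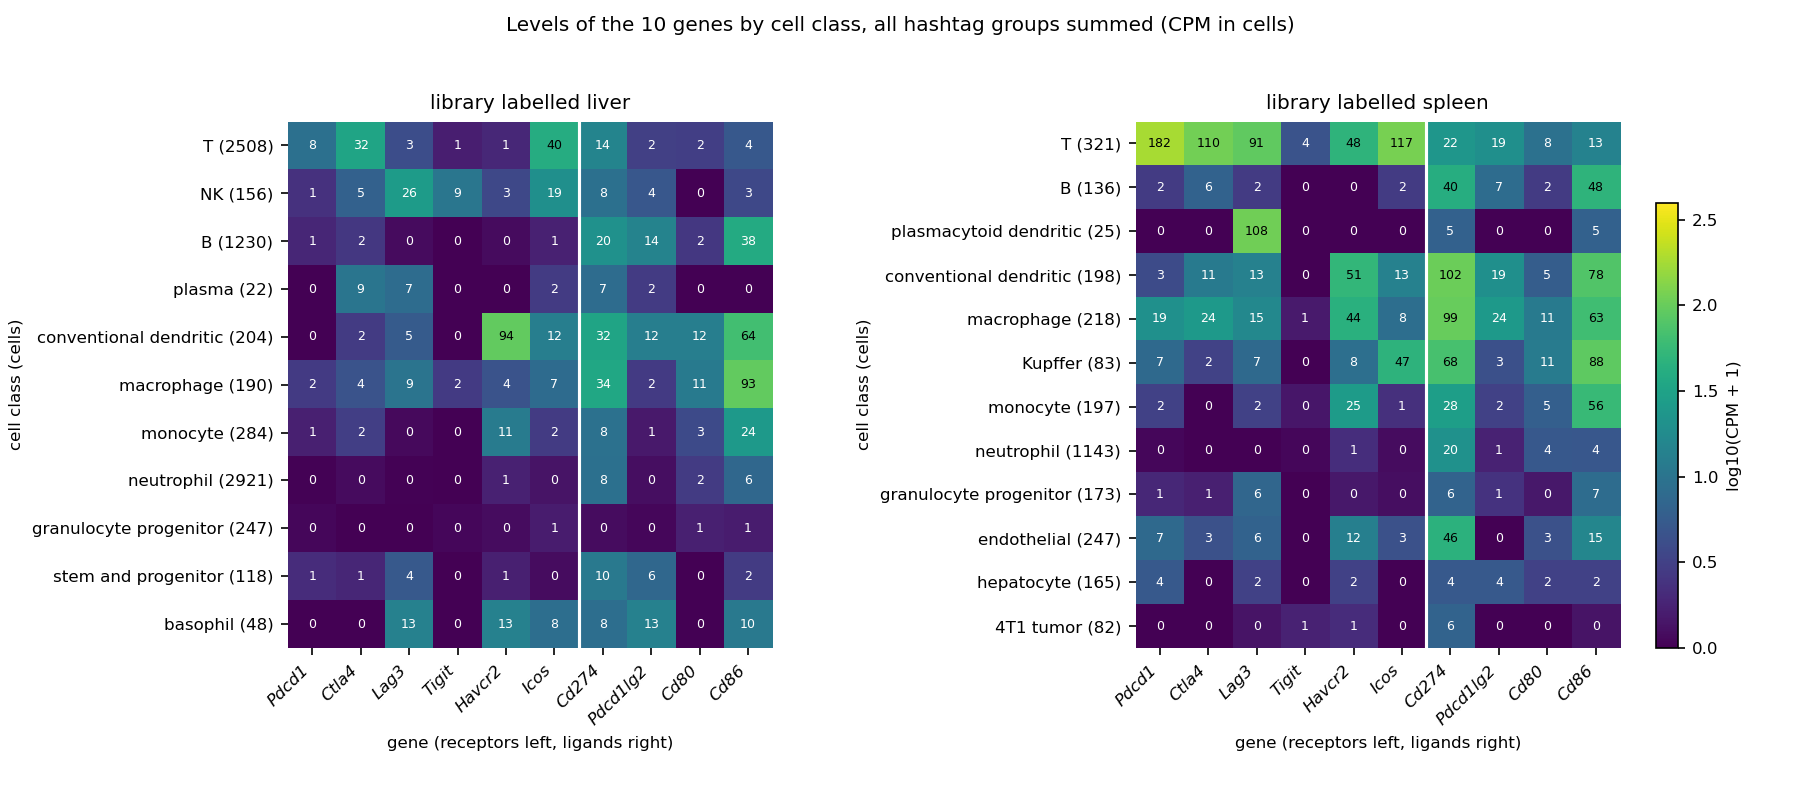
Levels of the 10 genes (columns, receptors left and ligands right of the white line) in each named cell class (lines, with the number of cells) of both libraries, over all hashtag groups, printed as CPM and colored on a log10(CPM + 1) scale. Pdcd1 reaches 182 in the T cell-like cells of the spleen-labelled library and 8 in those of the liver-labelled library, while Cd274 is above 90 in conventional dendritic and macrophage-like cells of the spleen-labelled library.

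The T cell-like cells of the spleen-labelled library fell into a cluster of 154 cells led by Ccl5, Cd8a, Cd8b1 and Gzma (cluster 10) and a cluster of 167 cells led by Ms4a4b, Gimap3 and Lat (cluster 7). Pdcd1 itself was among the 10 leading genes of the former. The level of Pdcd1 was 362 CPM in cluster 10 and 26.4 CPM in cluster 7, and Lag3 showed the same order with 185 and 9.36 CPM. Havcr2 had 100 of its 106 T cell UMIs in cluster 10. Icos had the opposite order, with 65.2 CPM in cluster 10 and 161 CPM in cluster 7.

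Within the same library, T cell-like cells were also sorted by their UMIs of Foxp3, Cd8a, Cd8b1 and Cd4. Of 157 CD8 T cells, 65.0% (57.0 to 72.4) had a UMI of Pdcd1, 49.7% of Lag3, 35.0% of Havcr2, 33.1% of Ctla4 and 22.3% of Icos. At least 1 of the 6 receptors was seen in 82.8% of these cells, at least 2 in 62.4% and at least 3 in 40.8%. Lag3 was seen in 61.8% of the cells with Pdcd1 and in 27.3% of the CD8 T cells without it, and Havcr2 in 44.1% and 18.2%, shares that also move with the depth of each cell. In a class that should lack these genes, the hepatocyte-like cells, Pdcd1 and Lag3 were each seen in 0.606% of 165 cells, at a median of 2082 UMIs against 4671 UMIs in the CD8 T cells. In the neutrophil-like cells, at a median of 5222 UMIs, Pdcd1 was seen in 0.0875% of cells.

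The 683 CD8 T cells of the liver-labelled library were deeper, with a median of 5765 UMIs, and held Pdcd1 in 0.878% of cells, Lag3 in 2.05% and Havcr2 in 0.439%. At least 3 receptors were seen in 0.439% of them. Its 162 Foxp3 T cells, a gate that marks regulatory T cells, were the cells in which receptors were common: 48.8% had a UMI of Ctla4, 37.7% of Icos and 61.1% of at least 1 receptor. The 785 CD4 T cells without Foxp3 stood lower, with Icos in 12.1% and Ctla4 in 5.86%.

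CBL0137 was compared with the vehicle for each receptor in the T cell-like cells. In the liver-labelled library, Icos stood above the vehicle at both doses and Ctla4 at the low dose, and no such difference was detectable for the other 4 receptors. The vehicle, low-dose and high-dose groups held 600, 867 and 1041 T cell-like cells. Summed over the 6 receptors, the level was 50.6 CPM (43.0 to 59.2) with the vehicle, 105 CPM (95.4 to 115) at the low dose and 88.4 CPM (81.0 to 96.3) at the high dose. The log2 ratios over the vehicle were 1.05 (0.79 to 1.32) and 0.80 (0.55 to 1.07), and both share the vehicle cells, as do all pairs of ratios below.

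Ctla4 was 16.7 CPM with the vehicle, 55.3 CPM at the low dose and 23.0 CPM at the high dose. The low-dose level stood apart from both other groups, with a log2 ratio over the vehicle of 1.73 (1.29 to 2.19), while that of the high dose was 0.46 (-0.01 to 0.95). A single low-dose cell held 31 of the 240 low-dose UMIs, and without the top cell of each group, a setting added once the values were known, the low-dose ratio was 1.68. Icos was 20.8, 36.4 and 52.9 CPM in the same order, and the 3 intervals did not overlap. A single low-dose cell held 27 of the 158 low-dose Icos UMIs, so the place of the low-dose interval rests in part on that cell. The log2 ratios of Icos were 0.81 (0.38 to 1.24) and 1.35 (0.96 to 1.75), and 0.30 and 0.80 as means over cells, in which each cell has the same weight. With hashtags called by MULTIseqDemux, the low-dose ratio of Ctla4 was 1.14.

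Pdcd1 was level between the groups, at 8.33, 7.83 and 8.16 CPM, with log2 ratios of -0.09 (-0.87 to 0.71) and -0.03 (-0.74 to 0.72). A single vehicle cell held 10 of the 26 vehicle Pdcd1 UMIs. Lag3 held 11, 15 and 16 UMIs, and its high-dose ratio of -0.40 (-1.60 to 0.85) left a wide range open to counting error. Havcr2 held 3, 4 and 6 UMIs. Of the members with at least 20 UMIs over both groups, 1 of 6 was past a log2 ratio of 1 at the low dose (Ctla4) and 2 of 7 at the high dose (Icos and the ligand Pdcd1lg2, with 1 vehicle UMI). Over all genes in these cells, 1.42% were past that ratio upward at the low dose and 2.28% at the high dose. None of these members was past it downward, where the background was 1.05% and 0.975%. The median log2 ratio of these members was -0.06 and -0.03, beside 0.01 and 0.02 over all genes.

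**Figure D2:**
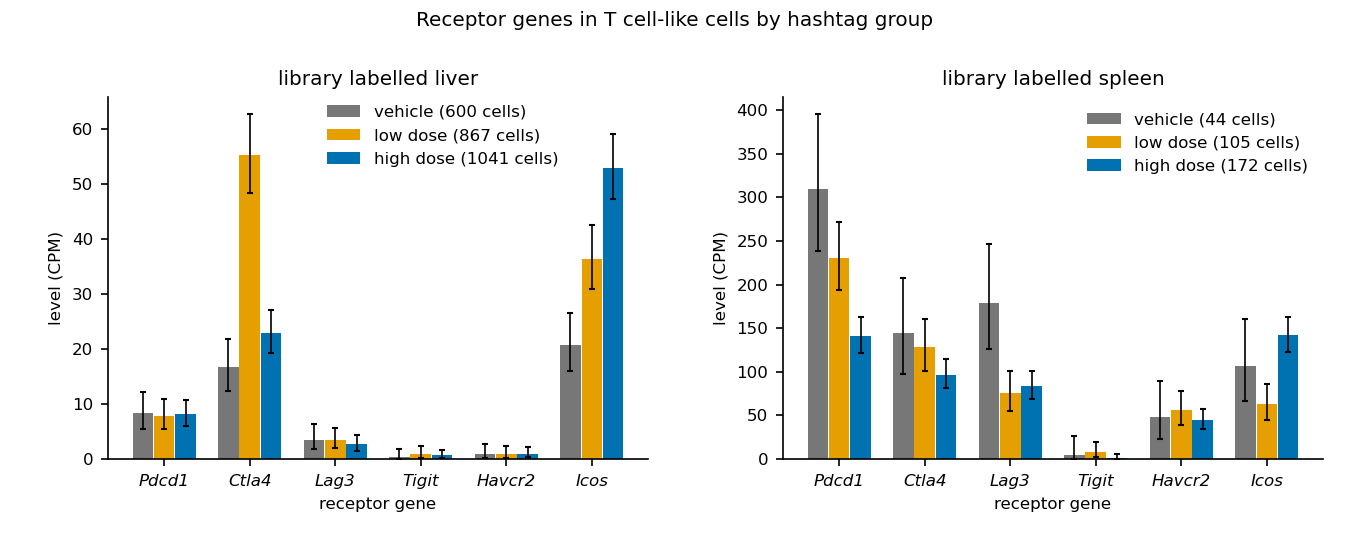
Levels of the 6 receptor genes in T cell-like cells (CPM, bars) with exact Poisson 95% intervals (lines) in the vehicle, low-dose and high-dose groups of each library, on separate vertical axes. In the liver-labelled library Ctla4 peaks at the low dose (55.3) and Icos at the high dose (52.9), and in the spleen-labelled library Pdcd1 is 309 with the vehicle and 141 at the high dose.

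The clusters within these T cell-like cells showed where the UMIs lay. Cluster 6, 467 cells led by Ikzf2, Izumo1r and Maf with Foxp3, Ctla4 and Icos also among its leading genes, held 316 of the 430 Ctla4 UMIs. Its Ctla4 level was 131 CPM with the vehicle, 229.7 CPM at the low dose and 96.9 CPM at the high dose, which gave log2 ratios of 0.81 (0.35 to 1.30) and -0.43 (-0.91 to 0.07). Pdcd1 in cluster 6 was 65.3, 42.2 and 28.2 CPM, with a high-dose log2 ratio over the vehicle of -1.21 (-1.99 to -0.42). A single vehicle cell held 10 of the 26 vehicle Pdcd1 UMIs, so this ratio rests in part on that cell. Pdcd1 was seen in 12 of 87 vehicle cells and 27 of 229 high-dose cells of the cluster. Icos in cluster 6 was 123, 117 and 155 CPM, with both intervals spanning 0. Thus the levels of Icos within this cluster did not separate the groups, while the cluster made up 87 of 600, 151 of 867 and 229 of 1041 T cell-like cells.

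Cluster 22 held 33 cells led by Lgals1, Icos and the cell cycle genes Top2a and Mki67, at a median depth of 22135 UMIs. Icos was 27.0 CPM with the vehicle, 241 CPM at the low dose and 188 CPM at the high dose, from 4, 49 and 87 UMIs in 8, 9 and 16 cells. Ctla4 held 0, 78 and 15 UMIs in the same cells. These few deep cells held 78 of the 240 low-dose Ctla4 UMIs. A single low-dose cell held 27 of the 49 low-dose Icos UMIs of this cluster. In clusters 0 and 3, led by Igfbp4 and Lef1 and by Cd8b1 and Cd8a, the 6 receptors summed to 12.1 and 13.7 CPM over all groups.

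Sorted by UMIs, the 33, 61 and 68 Foxp3 T cells held Ctla4 at 138, 444 and 224 CPM, with log2 ratios of 1.69 (1.05 to 2.39) and 0.70 (0.01 to 1.43). A single low-dose cell held 31 of the 149 low-dose Ctla4 UMIs of these Foxp3 T cells. Icos in these cells was 114, 233 and 210 CPM, and a single low-dose cell held 27 of the 78 low-dose UMIs. In the CD4 T cells without Foxp3, Icos was 26.9, 29.4 and 73.4 CPM, and only the high-dose ratio of 1.45 (0.82 to 2.14) left out 0. In the CD8 T cells the 6 receptors summed to 22.3, 24.8 and 21.1 CPM, and Lag3 was 9.71, 3.64 and 2.28 CPM, from 10, 5 and 4 UMIs.

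**Figure D3:**
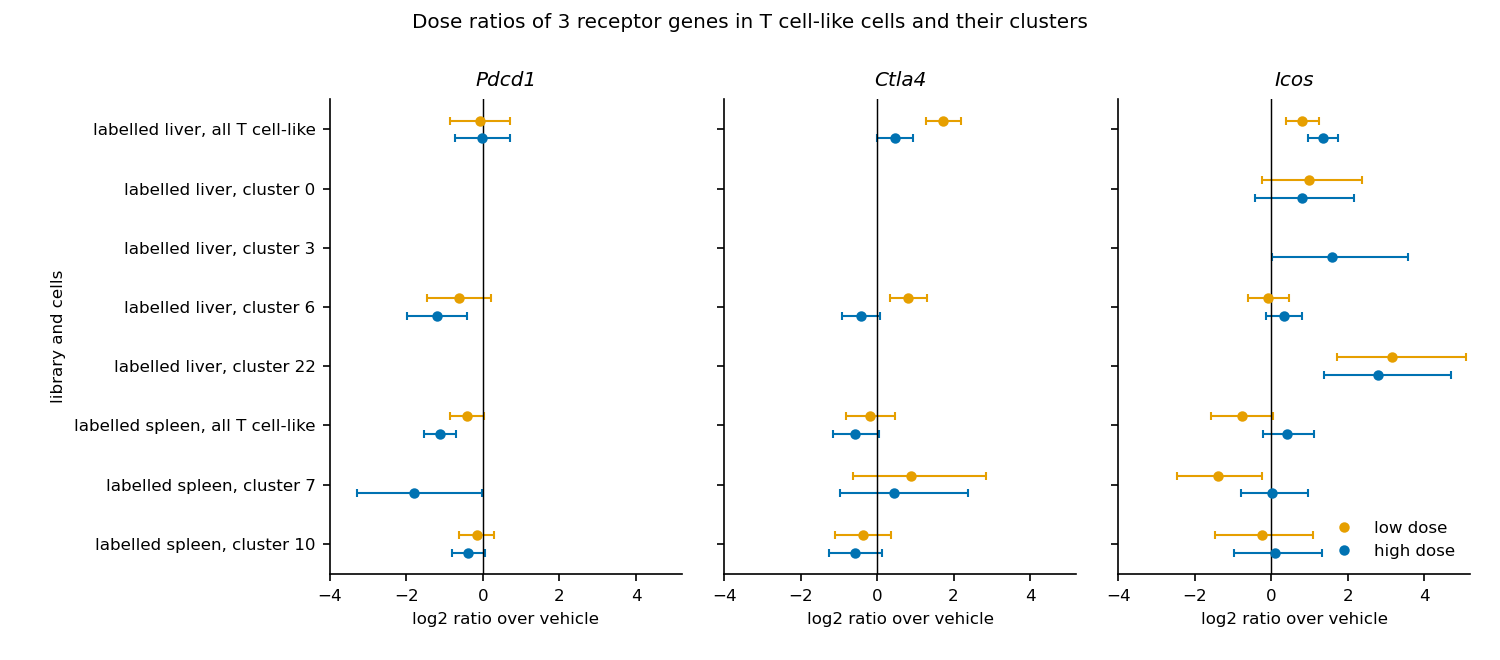
Log2 ratios of Pdcd1, Ctla4 and Icos, low dose (orange) and high dose (blue) over the vehicle, in all T cell-like cells and in each T cell-like cluster of both libraries, with exact conditional 95% intervals (lines); ratios with under 20 UMIs over both groups or a group at 0 are left out. The Ctla4 point of the low dose lies right of 0 in all T cell-like cells and in cluster 6 of the liver-labelled library, and the Pdcd1 point of the high dose lies left of 0 in all T cell-like cells of the spleen-labelled library but its interval spans 0 in cluster 10.

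In the T cell-like cells of the spleen-labelled library, Lag3 at both doses and Pdcd1 at the high dose stood below the vehicle, while Ctla4, Havcr2 and Icos had intervals that spanned 0. The groups held 44, 105 and 172 T cell-like cells and the 6 receptors summed to 793, 561 and 511 CPM. The log2 ratios over the vehicle were -0.50 (-0.77 to -0.22) and -0.64 (-0.88 to -0.38). Pdcd1 was 309 CPM with the vehicle, 230.3 CPM at the low dose and 141 CPM at the high dose, with ratios of -0.43 (-0.86 to 0.02) and -1.13 (-1.55 to -0.70). Lag3 was 179, 75.7 and 83.8 CPM, with ratios of -1.24 (-1.90 to -0.58) and -1.10 (-1.64 to -0.52). As means over cells, the high-dose ratios were -0.46 for Pdcd1 and -0.19 for Lag3, neither of them past -1.

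The makeup of the class moved along with these ratios. Cluster 10, where Pdcd1 and Lag3 lie, gave 136461 of 206786 T cell UMIs with the vehicle, 340698 of 607858 at the low dose and 535601 of 1373128 at the high dose. Within cluster 10, Pdcd1 was 432, 385 and 330.5 CPM with ratios of -0.17 (-0.62 to 0.30) and -0.39 (-0.82 to 0.06). Lag3 there was 242, 129 and 205 CPM, and the low-dose ratio of -0.90 (-1.59 to -0.21) left out 0 while the high-dose ratio of -0.24 (-0.81 to 0.37) did not. In cluster 7 the 31 Pdcd1 UMIs gave 71.1, 33.7 and 20.3 CPM, with a high-dose ratio of -1.81 (-3.31 to -0.01). In the 25, 47 and 85 CD8 T cells, Pdcd1 was seen in 64.0%, 61.7% and 67.1% of cells, at median depths of 4571, 4684 and 4671 UMIs. The Pdcd1 level of these cells was 356, 340.3 and 308 CPM, with overlapping intervals.

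Ctla4 in all T cell-like cells of this library was 145, 128 and 96.9 CPM with both intervals spanning 0, and in the CD8 T cells it was 207, 121 and 115 CPM with ratios of -0.77 (-1.49 to -0.04) and -0.85 (-1.50 to -0.16). Havcr2 was 48.4, 55.9 and 45.2 CPM and Icos was 106, 62.5 and 142 CPM, and none of their 4 ratios left out 0. Of the members with at least 20 UMIs, 1 of 6 was past a log2 ratio of -1 at the low dose, against 2.95% of all genes, and 2 of 8 at the high dose, against 4.33%. Upward, 0 of 6 and 1 of 8 were past 1, against 7.98% and 14.1%. Over all genes the median log2 ratio at the high dose was 0.10. Neutrophil markers summed to 1011, 5500 and 492 CPM and erythroid markers to 33.9, 6158 and 28.4 CPM in these T cell-like cells. Plasma cell markers summed to 0, 1.65 and 797 CPM, B cell markers to 0, 9.87 and 106 CPM and macrophage markers to 24.2, 451 and 285 CPM. T cell markers summed to 6645, 6064 and 5410 CPM. The part of these in the levels of either dose was not tested.

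Other genes of the checkpoint pathway in T cell-like cells showed a different set of changes. Of 8 costimulatory receptors in the liver-labelled library, 2 were past a log2 ratio of 1 at the low dose, against 1.42% of all genes, and 0 at the high dose, against 2.28%. Those past it were Tnfrsf4 (OX40), at 27.2, 55.3 and 50.8 CPM, and Tnfrsf9 (4-1BB), at 4.17, 13.8 and 6.66 CPM. In the spleen-labelled library Tnfrsf4 was 43.5, 93.8 and 114 CPM, with ratios of 1.11 (0.08 to 2.31) and 1.38 (0.42 to 2.54). It was the 1 of 6 costimulatory receptors with enough UMIs past 1 at the low dose there, against 7.98% of all genes. At the high dose it was 1 of 7, against 14.1%, a share near that of all genes. Tnfrsf9 in that library was 271, 174 and 153 CPM, lower than the vehicle in both groups. Cd28, the activating partner of CTLA-4, was 131, 147 and 165 CPM in the liver-labelled library.

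Of the inhibitory receptors beyond the members, 1 of 8 with enough UMIs in the liver-labelled library was past -1 at the low dose, against 1.05% of all genes, and 0 at the high dose, against 0.975%. It was Klrg1, at 8.97, 3.68 and 6.83 CPM. Vsir (VISTA) was 88.1, 96.5 and 84.1 CPM. Among genes that accompany sustained T cell activation, Nr4a2 in the spleen-labelled library was 140, 67.5 and 52.4 CPM, with ratios of -1.06 (-1.78 to -0.32) and -1.42 (-2.06 to -0.74). Tox, a factor of exhausted T cells, was 247, 153 and 138 CPM there, while the granzyme gene Gzmb was 377, 517 and 841 CPM. The part of the change in cluster makeup in these differences was not tested. The 8 NK cell markers, of which Gzma and Prf1 are also expressed by cytotoxic T cells, summed to 2539, 2339 and 3862 CPM in these T cell-like cells, with 6 of the 8 detected in each group, and to 121 CPM over all groups in those of the liver-labelled library. A sub-cluster of 20 cells in the spleen-labelled library had at least 3 of these NK markers raised and a low summed level of Cd3d, Cd3e and Cd3g, and the part of NK cells in these levels was not tested.

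The ligand Cd274 was compared between groups in each class that could present it. In the neutrophil-like cells of the liver-labelled library it was 11.7 CPM (9.82 to 13.8) with the vehicle, 4.87 CPM (3.66 to 6.35) at the low dose and 5.82 CPM (3.69 to 8.73) at the high dose. The vehicle stood above both doses, with log2 ratios of -1.26 (-1.74 to -0.80) and -1.0 (-1.71 to -0.36). In the spleen-labelled library it was 19.7, 24.1 and 12.7 CPM and both intervals spanned 0.

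The neutrophil-like class was not the same mixture in every group. Cluster 5 of the liver-labelled library, led by Saa3, Il1b and Ccrl2, had the highest Cd274 level there (54.6 CPM) and held 363 cells of the vehicle group, 176 of the low-dose group and 0 of the high-dose group. In that cluster Cd274 was 70.4 CPM with the vehicle and 24.5 CPM at the low dose, a log2 ratio of -1.53 (-2.50 to -0.66), so the low-dose difference was also seen within the cluster. Cluster 2, led by Il1b and Igfbp6, showed the same order, with 29.6 and 14.6 CPM and a ratio of -1.02 (-1.78 to -0.28). At the high dose 144 of 198 cells were in cluster 4, led by Stfa3 and Stfa2, where Cd274 was 0.730, 0.899 and 5.99 CPM from 3, 3 and 18 UMIs. The high-dose level was therefore above the vehicle within cluster 4 and below it over the whole class.

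Among the neutrophil-like clusters, Cd274 was highest in cluster 16 of the spleen-labelled library. These 64 neutrophil-like cells, led by Cxcl3, Hilpda, Hcar2, Ccrl2 and Bnip3, held 85 of the 184 neutrophil Cd274 UMIs at a level of 523 CPM (418 to 647). Hilpda and Bnip3 are known targets of hypoxia-inducible factors. The next neutrophil-like cluster of that library, cluster 0, stood at 40.8 CPM (30.9 to 52.8). By group, cluster 16 held Cd274 at 336 CPM with the vehicle, 689.6 CPM at the low dose and 612 CPM at the high dose, in 29, 32 and 3 cells. The low-dose ratio was 1.04 (0.33 to 1.78), and 1 low-dose cell held 17 of 54 UMIs. The other ligands were all but absent from the cluster, with 3 UMIs of Pdcd1lg2, 2 of Cd80 and 0 of Cd86.

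**Figure D4:**
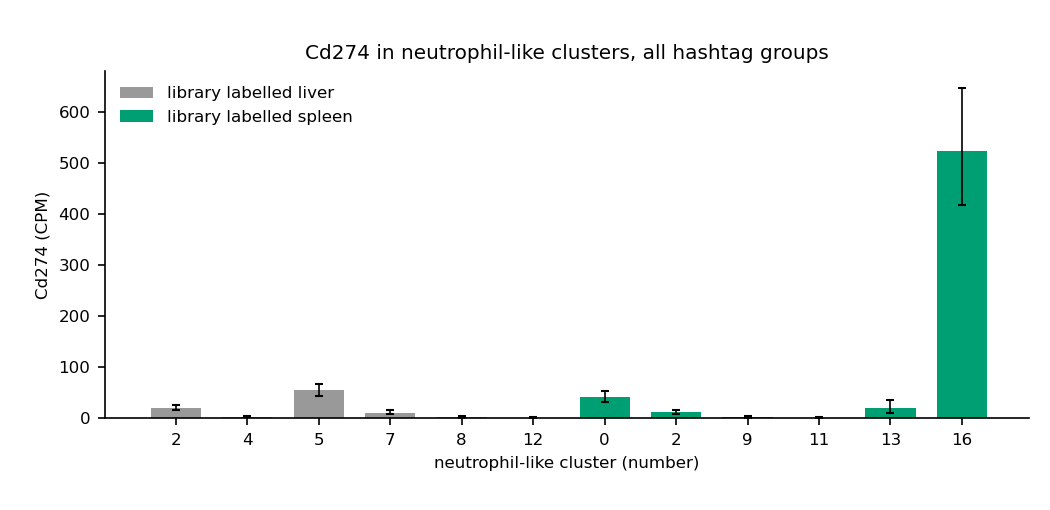
Level of Cd274 (CPM, bars) with exact Poisson 95% intervals (lines) in each neutrophil-like cluster of the liver-labelled library (gray) and the spleen-labelled library (green), over all hashtag groups. Cluster 16 of the spleen-labelled library stands at 523, and no other cluster exceeds 54.6.

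Monocyte-like cells carried more Cd274 at the high dose than with the vehicle in both libraries, and at the low dose in the liver-labelled library. In the liver-labelled library it was 4.10, 14.0 and 15.3 CPM, from 14, 26 and 10 UMIs, with log2 ratios of 1.77 (0.78 to 2.82) and 1.89 (0.56 to 3.17). The 10 high-dose UMIs lay in 4 of 27 cells, and 1 cell held 4 of them. In the spleen-labelled library Cd274 was 17.6, 21.4 and 50.8 CPM, with 30 high-dose UMIs in 9 of 40 cells. The high-dose ratio of 1.53 (0.57 to 2.56) left out 0 while the low-dose ratio of 0.28 did not. A single vehicle cell held 7 of the 14 vehicle UMIs there. Cd86 in monocyte-like cells was level in the liver-labelled library, at 24.3, 23.7 and 25.9 CPM. Havcr2, which monocytes also express, was 10.1, 38.5 and 25.4 CPM in the spleen-labelled library and 8.50, 17.8 and 6.10 CPM in the liver-labelled library. Genes past a log2 ratio of 1 made up 2.07% and 4.20% of those measured in monocyte-like cells at the 2 doses in the liver-labelled library, and 3.39% and 4.55% in the spleen-labelled library. Of the 3 members with at least 20 UMIs in the liver-labelled library, 2 were past it at the low dose and 1 at the high dose.

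The macrophage-like cells of the spleen-labelled library held Cd274 at 82.0, 99.6 and 105 CPM, with both intervals of the ratio spanning 0. Cd86 was 79.2 CPM with the vehicle, 78.9 CPM at the low dose and 43.6 CPM at the high dose. The high dose stood below both other groups, with a ratio over the vehicle of -0.86 (-1.39 to -0.33), and the low-dose ratio was -0.01. The 10 conventional dendritic cell markers summed to 6530, 4118 and 3004 CPM in these macrophage-like cells, and their part in the Cd86 levels was not tested. These markers include the MHC class II genes H2-Ab1 and H2-Aa, so the sum is not particular to dendritic cells. Of 6 inhibitory receptors beyond the members with enough UMIs in these cells, 4 were past a log2 ratio of 1 at the high dose, against 4.99% of all genes. The list included Ceacam1, at 4.24, 34.3 and 18.8 CPM, and Cd244a, at 15.6, 20.7 and 32.7 CPM, while the intervals of Cd160 and Klrc1 spanned 0. T cell markers were also detected in these macrophage-like cells, as given above, and the part of T and NK cell RNA in these 4 receptors was not tested. In the Kupffer cell-like cells Cd274 was 38.6, 97.7 and 59.4 CPM and Cd86 was 96.6, 102 and 82.6 CPM, in 13, 30 and 40 cells, and every interval spanned 0.

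The cluster named conventional dendritic cell-like in the liver-labelled library had less Cd86 at the high dose, where the markers behind its name were also lower, as given below. It was 90.4 CPM (64.0 to 124) with the vehicle, 89.9 CPM (60.2 to 129) at the low dose and 8.67 CPM (1.79 to 25.3) at the high dose, from 38, 29 and 3 UMIs, which gave a high-dose ratio of -3.38 (-5.72 to -1.73). Havcr2 in the same cells was 136, 102 and 34.7 CPM, with a high-dose ratio of -1.97 (-3.00 to -1.05). Other ligands of the pathway moved with them: of 7 with enough UMIs at the high dose, 6 were past -1 and 1 past 1. Icosl was 52.3, 93.0 and 14.4 CPM and Cd40 was 42.8, 31.0 and 8.67 CPM, whereas Cd200 was 16.7, 27.9 and 69.3 CPM. Over all genes in these cells 15.7% were past -1 and 13.1% past 1.

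The marker sums of that cluster also differed between groups. The dendritic cell list holds the MHC class II genes H2-Ab1 and H2-Aa, so its sum is not particular to dendritic cells. The 10 conventional dendritic cell markers, all detected in each group, summed to 13786 CPM with the vehicle, 9571 CPM at the low dose and 5192 CPM at the high dose. In the B cell-like cells of the liver-labelled library the same markers summed to 6579, 5887 and 7601 CPM, with 6, 5 and 6 genes detected. The high-dose sum of the cluster was below these, and whether its high-dose cells are dendritic cells was not tested. The 7 T cell markers summed to 214, 527 and 1014 CPM and the 6 erythroid markers to 43728, 76236 and 36391 CPM, and Hbb-bs led the cluster. The part of these in the ligand levels was not tested. In the conventional dendritic cell-like cells of the spleen-labelled library, the markers summed to 9008, 7937 and 11396 CPM, Cd86 was 68.2, 88.8 and 73.2 CPM, and Cd274 was 79.6, 108 and 112 CPM, with every interval spanning 0.

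In the B cell-like cells of the liver-labelled library, Cd86 was 24.9, 60.9 and 28.7 CPM and the low dose stood apart, with a ratio of 1.29 (0.80 to 1.80). A cluster of 145 cells led by Pmepa1 and Arap2 (cluster 17), of which 140 were low-dose cells, held 46 of the 109 low-dose UMIs. In cluster 1, which held B cells of all groups, Cd86 was 26.8, 46.5 and 28.3 CPM with a low-dose ratio of 0.79 (0.23 to 1.36). Cd274 in the B cell-like cells was 12.7, 22.4 and 25.6 CPM, with ratios of 0.81 (0.07 to 1.59) and 1.01 (0.27 to 1.78).

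Endothelial cell-like cells, led by Clec4g, Ptprb and Aqp1, held 1, 6 and 34 UMIs of Cd274 in the vehicle, low-dose and high-dose groups of the spleen-labelled library. The levels were 10.7, 19.8 and 68.7 CPM, and the high-dose ratio was 2.68 (0.10 to 8.02), an interval set by the single vehicle UMI. A single high-dose cell held 10 of the 34 UMIs. Macrophage markers in these cells summed to 312, 605 and 1190 CPM, and their part was not tested. In the 4T1-like cells Cd274 held 0 UMIs with the vehicle, 1 at the low dose and 14 at the high dose, in 134482, 394727 and 2126745 gene UMIs, and the vehicle count of 0 allows up to 22.3 CPM, so no difference was detectable. Cd80 and Pdcd1lg2 held no UMIs in the 4T1-like cells.

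**Figure D5:**
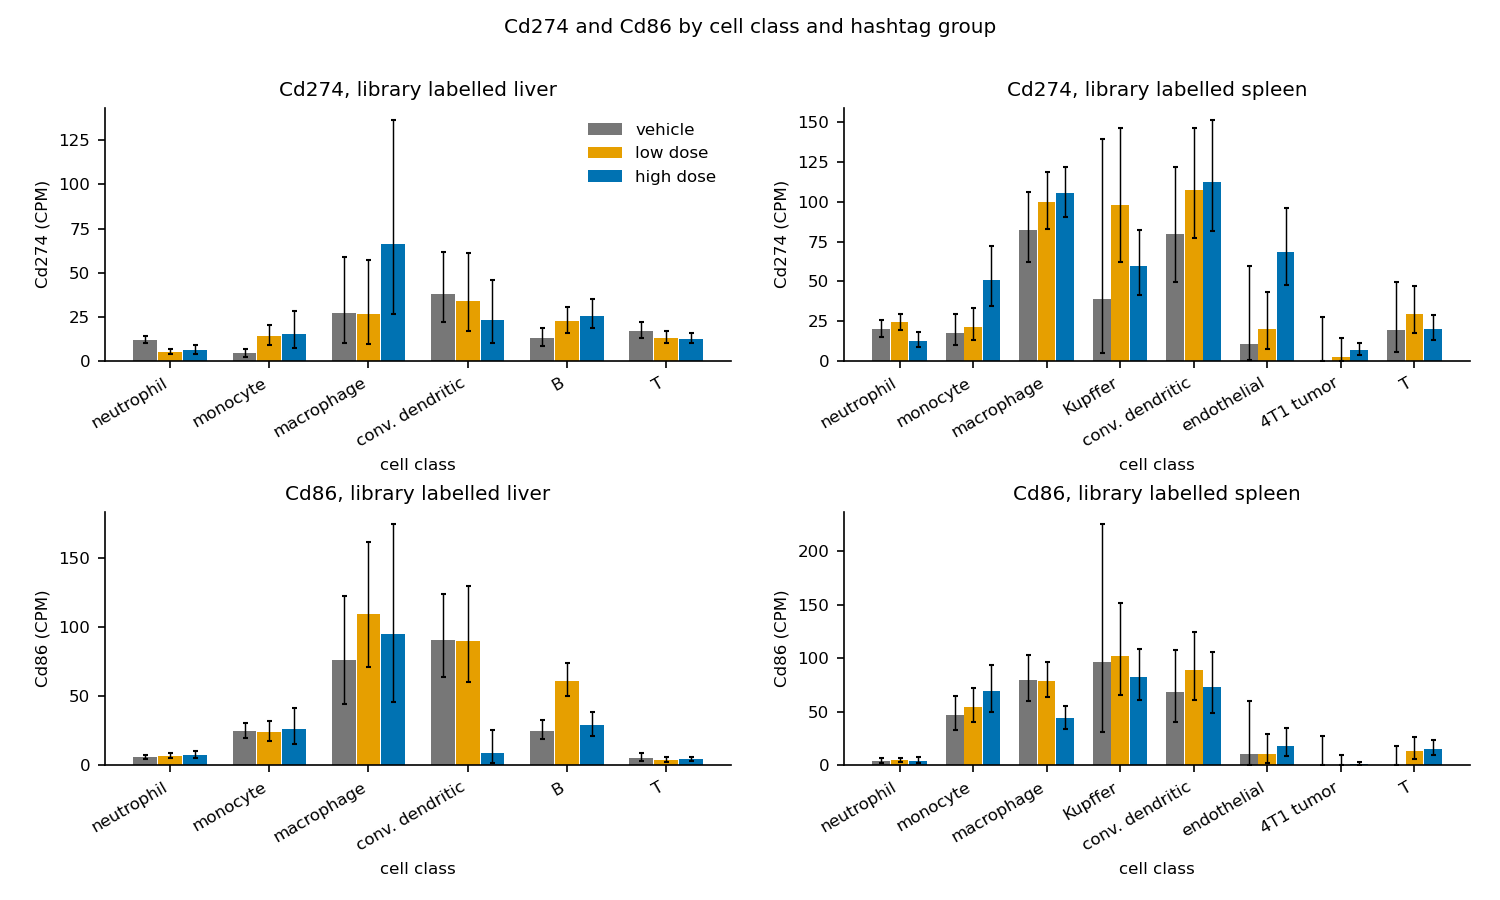
Levels of Cd274 (top) and Cd86 (bottom) by cell class in the vehicle, low-dose and high-dose groups of the liver-labelled library (left) and the spleen-labelled library (right), as CPM (bars) with exact Poisson 95% intervals (lines); each panel has its own vertical axis. Cd86 in the conventional dendritic cell-like cluster of the liver-labelled library is 90.4 with the vehicle and 8.67 at the high dose, where the dendritic cell markers of the cluster are also lower. Cd274 in monocyte-like cells is higher at the high dose than with the vehicle in both libraries, from only 10 high-dose UMIs in the liver-labelled library.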

How the data were processed

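Hashtag-pooled single-cell RNA-seq of 2 libraries was analysed from the deposited raw count matrices (UMI counts per gene and barcode, and counts per hashtag), which the authors made with Cell Ranger against mm10. The processing notes name version 6.0.0 and the matrix headers 5.0.0, and the authors' later filters are not in these files. Barcodes were assigned with HTODemux of Seurat 5.3.0 (R 4.3.3, quantile 0.99), and barcodes with no call or 2 hashtags were left out of group values. Doublets with 2 hashtags were thus removed, and Scrublet (scanpy 1.11.5) calls, 248 and 1 barcodes, were an alternative. The second of these is too few for the caller to have worked. Cells had at least 500 UMIs, and no mitochondrial filter was used except as an alternative.

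Each library was normalized with sctransform 0.4.2 without the 10 genes among the variable features, and clustered with 30 principal components at resolution 0.8. A cluster was named from a marker list when at least 3 markers were raised by a log2 fold of 1 (with 10 CPM added) in at least 20% of its cells. These limits were set after the data were seen. CD8, CD4 and Foxp3 T cells were sorted within T cell-like clusters: Foxp3 T cells had a UMI of Foxp3, and of the rest, CD8 T cells had Cd8a or Cd8b1 and no Cd4, and CD4 T cells the reverse.

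Counts were summed over cells of a group. Exact Poisson intervals were given for levels, exact conditional binomial intervals for ratios, and Clopper-Pearson intervals for shares (scipy 1.17.1), all at 95%. Share comparisons across depths were also made after thinning each cell to 500 UMIs. A gene counted as past the ratio at log2 1 or -1, with at least 20 UMIs over both groups. With 1 pool per group, no test was made. On simulated counts for T cell-like cells, high dose over vehicle, the true value lay inside the interval for 96.1% of 9952 unchanged genes in the liver-labelled library and 96.7% of 6987 in the spleen-labelled library. These counts were drawn from the Poisson model that the intervals assume, so they check the calculation only. They hold no spread between cells and cannot show how the intervals perform on the measured counts.

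Named genes were the members and pathway genes of the T cell-like and myeloid classes, with a few of the NK cell-like cells added. The pathway genes were chosen from the up to 4 per list with the most UMIs in a class. Those past the ratio with an interval that left out 0 could also be chosen. For likeness, the 3 genes with the highest Pearson correlation of log2(CPM + 1) to each member were named, among genes with at least 200 UMIs. The members and lists were chosen with earlier results of these data known. Gene positions are from GENCODE on GRCm38, and promoters from RefSeq, where 7 of the 10 members matched and Lag3, Cd86 and Icos did not.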

Additional observations from a re-analysis of the deposited data

Results flagged for a closer look

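Havcr2 in the conventional dendritic cell-like cells moved in opposite directions in the libraries. In the liver-labelled library it was 136 CPM with the vehicle and 34.7 CPM at the high dose, a log2 ratio of -1.97 (-3.00 to -1.05). In the spleen-labelled library it was 22.7 CPM with the vehicle and 78.5 CPM at the high dose, a log2 ratio of 1.79 (0.50 to 3.34). The difference between the libraries was not tested, since each group had 1 pool per library. The conventional dendritic cell markers moved the same way as Havcr2 in each library, from 13786 to 5192 CPM and from 9008 to 11396 CPM, and their part was not tested.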

How the results depend on the processing

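No paired analysis was possible because each group had 1 pool per library and no test was made. Of 761 values recomputed under the alternatives, 720 stayed inside their counting interval or, for numbers of genes, within 1.5 times, and 41 did not. No ratio whose interval left out 0 changed sign. The total joins unlike settings and does not measure how stable a single result is. Leaving out Scrublet doublets, the cell filter and the other denominator moved 0 of 89, 89 and 77 values. Scrublet called only 1 barcode of the spleen-labelled library. The unmoved values of that library, also counted in the 720, are therefore no check for doublets. Means over cells moved 12 of 77 and sub-clusters 3 of 5, and the other UMI minimums and thinning depths moved every value. In the T cell-like cells of the liver-labelled library, the low-dose log2 ratio of the summed receptors was 0.72 with hashtags called by MULTIseqDemux and 0.61 at clustering resolution 0.4, against 1.05. The high-dose ratio was 0.42 as a mean over cells, against 0.80. In the spleen-labelled library that mean gave -0.18, against -0.64. With MULTIseqDemux the summed receptors stood at 73.4 CPM at the low dose and 73.6 CPM at the high dose in the liver-labelled library and at 644 CPM at the low dose in the spleen-labelled library, where the dominant hashtag gave 634 CPM. For the summed ligands in neutrophil-like cells, the mean over cells gave -1.01 at the high dose in the liver-labelled library and -0.23 at the low dose in the spleen-labelled library. The share of T cell-like cells with at least 1 receptor, 3.59% and 23.4% after thinning to 500 UMIs, was 6.53% and 34.8% at 1000 UMIs and 15.9% and 65.7% without thinning. With sub-clusters in place of UMI gates, summed receptors were 358 CPM in Foxp3 T cells and 15.8 CPM in CD4 T cells of the liver-labelled library and 624 CPM in CD8 T cells of the spleen-labelled library, against 527, 89.9 and 784 CPM. No CD4 sub-cluster was found in the spleen-labelled library. Genes past the ratio in T cell-like cells numbered 242, 330, 560 and 1321 (low and high dose, liver-labelled library, then spleen). With at least 50 UMIs they numbered 60, 105, 130 and 469, and with at least 1 UMI 3609, 3660, 5162 and 6151. Among single genes, the low-dose ratio of Ctla4 in the liver-labelled library was 1.14 with MULTIseqDemux, and the high-dose ratios of Pdcd1 and Lag3 in the spleen-labelled library were -0.46 and -0.19 as means over cells. Tigit in either library, and all members in the Foxp3 T and CD4 T cells of the spleen-labelled library, were limited by depth.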

Other observations

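Lag3 was also found in cells that are not T or NK cells. One such class was the plasmacytoid dendritic cell-like cells of the spleen-labelled library, a cell type known to express LAG-3. Lag3 there was 247 CPM with the vehicle, 93.9 CPM at the low dose and 62.8 CPM at the high dose. These levels came from 9, 5 and 6 UMIs in 5, 8 and 12 cells. Neither dose reached, together with the vehicle, the minimum of 20 UMIs over both groups, so no ratio is given. The T cell markers summed to 165, 56.3 and 0 CPM in these groups, with 5, 2 and 0 of the 7 genes detected, and their part in the Lag3 levels was not tested. In the stem and progenitor-like cells of the liver-labelled library, led by Car1 and Car2, Lag3 held 19 UMIs (4.32 CPM), Pdcd1lg2 held 28 UMIs (6.37 CPM) and Cd274 held 45 UMIs (10.2 CPM), while Cd80 and Tigit held none. The high-dose group held 10, 20 and 32 of these. Stem markers summed to only 693 CPM there. Granulocyte progenitor markers summed to 10163, 9597 and 3719 CPM by group, erythroid markers to 1549, 5593 and 8798 CPM and T cell markers to 27.8, 14.8 and 87.8 CPM. The class is thus a mixture that differs between groups, and the part of this in the levels was not tested.

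Across 61 sums of a cell class and a group in a library with at least 100000 UMIs, the genes whose levels followed each member most closely among 10948 genes were listed as a description. The points come from 2 libraries and differ in depth. Pdcd1 was closest to Tcrg-C2 (Pearson r = 0.89), Cxcr6 (0.84) and Actn2 (0.79). Ctla4 was closest to Cxcr6 (0.78) and Icos to Cxcr6 (0.78), with Tnfrsf4 (0.75) also among the first 3 for Icos. Lag3 was close to Gzmb (0.75). Cd274 was closest to Parp14 (0.76) and Cd86 to Ctss (0.84), the gene of the antigen-processing protease cathepsin S.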
